A study of Mus musculus with 9 samples.

Results

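The genes described here carry out MHC class I and class II antigen presentation. They were every row of the count table whose mouse symbol starts with H2- (45 rows), together with 19 named genes: B2m, Tap1, Tap2, Tapbp, Tapbpl, Psmb8, Psmb9, Psmb10, Psme1, Psme2, Erap1, Nlrc5, Ciita, Cd74, Canx, Calr, Pdia3, Cd1d1 and Ctss. The rule used names alone and no measured value, though it was chosen with earlier results of these data known. It found 64 of the 52636 genes of the table, and 41 of them were among the 14583 genes with enough counts to be tested. RNA was sequenced from endothelial cells sorted from the livers of mice at day 7 after tamoxifen. The sort kept live cells that carried CD31 and VE-cadherin and lacked CD45, the surface protein of leukocytes. The study set 4 control libraries, whose genotype is labelled Wild Type, against 5 libraries whose genotype is labelled Erg and Fli1 double knockout. Per the labels, mice of both groups received tamoxifen, the drug that switches on an inducible recombinase. The recombinase and its promoter, the exons deleted, the strain and the age of the mice are details that the sources used here leave out. Erg and Fli1 are ETS family transcription factors of endothelial cells.

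MHC class I molecules are made by nearly all nucleated cells and show peptides from inside the cell to CD8 T cells. The proteasome cuts the peptides, the TAP transporter carries them into the endoplasmic reticulum, the aminopeptidase ERAP1 trims them, and a loading complex places them on a heavy chain paired with β2-microglobulin. MHC class II molecules show peptides from endocytosed proteins to CD4 T cells, and are made mainly by dendritic cells, macrophages and B cells. The protein NLRC5 is the transactivator of class I genes and CIITA that of class II genes. Liver sinusoidal endothelial cells take up circulating antigen and can present it on both kinds of molecule.

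The libraries held 31613059 to 34663989 counts in the control group and 26791371 to 36401682 in the group labelled knockout, so that 1 count was worth 0.026 to 0.0368 CPM (counts scaled to library size with TMM factors). Erg stood at 312 ± 17.8 CPM in the controls (mean ± SD, n = 4) and 143 ± 10.9 in the libraries labelled knockout (n = 5) (log2 fold change -1.12 ± 0.08, adjusted p = 2.61e-05, with the log2 fold change given ± its standard error here and below), while Fli1 stood at 100 ± 8.01 CPM in the controls (mean ± SD, n = 4) and 147 ± 22.5 in the libraries labelled knockout (n = 5) and was higher (log2 fold change 0.56 ± 0.12, adjusted p = 0.00636). Counts outside a deleted stretch cannot check a deletion, and the Fli1 reading goes against its label, so the second group is called "labelled knockout" throughout. Libraries of both sexes were read in both groups (3 male and 1 female control, 2 male and 3 female labelled knockout), and knockout replicate 3, read as female, also held 178 counts of the Y-linked gene Ddx3y. Summed CPM of 8 pan-endothelial markers ran from 15553 to 17260 in the controls and from 11759 to 17071 in the libraries labelled knockout, where replicates 2 and 3 stood apart at 11759 and 12342 and the other 3 at 16204 or more. Of these 8, Tie1 and Tek were called lower. The summed CPM of 8 sinusoidal endothelial markers ran from 27149 to 29135 and from 11351 to 18530, and 4 of these 8 (Stab1, Clec4g, Fcgr2b and Gpr182) were called lower. Of 4 neutrophil markers, all 3 tested (S100a8, S100a9 and Retnlg) were called higher, with a summed CPM of 0.41 to 4.25 in the controls and 6.58 to 21.3 in the libraries labelled knockout, and the part of such RNA in the results below was not tested. These calls ended on leaving out control replicate 1, 2 or 3 for Tek (adjusted p 0.0544 to 0.0593), any control or knockout replicate 1 or 2 for Fcgr2b (0.0516 to 0.0808) and control replicate 1 or 3 for Retnlg (0.0556 to 0.0582). Each value below is from sorted cells in bulk, where fewer cells of a type and less RNA per cell cannot be told apart. The labels do not tie each library to a separate mouse. Both sexes occur in each group, and replicates within a group differed by 20.3 to 182 in chi-square per degree of freedom, beyond counting error. The p-values reflect only how far these samples vary, and how much of that is technical was not tested.

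Genes of the class I pathway were lower in the libraries labelled knockout, from their transactivator to the heavy chains. Of the 41 genes tested, 25 fell, 0 rose and 16 did not pass the threshold (edgeR, adjusted p under 0.05 over all genes tested). Among all 14583 genes, 14.8% were called lower and 14.5% higher. At an unadjusted p under 0.05 the counts were 26 lower and 0 higher, and DESeq2 and limma-voom each called 25 lower and 0 higher. In all 25 that fell, every library labelled knockout was below every control library, and in 0 genes of the set was every such library above the controls. Over all genes tested, 13.8% and 13.2% showed those patterns. The falls ranged from 1.39-fold to 7.43-fold with a median of 1.99-fold, and the median log2 fold change of the 41 was -0.78 against 0.01 for all genes tested. Leaving out 1 library at a time gave 20 to 25 genes lower, with the 20 reached without control replicate 1 and without control replicate 2. Leaving out knockout replicates 2 and 3 together gave 23.

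Genes of the class I route (heavy chains, β2-microglobulin, peptide supply, TAP and loading, and Nlrc5) made up 30 of the 41, and 24 of these 30 were lower, with a median log2 fold change of -0.81. Of the 10 genes of the class II route (chains, invariant chain, loading proteins, Ctss and Ciita), 0 were called in either direction by edgeR, DESeq2 or limma-voom, and 1 was lower at an unadjusted p under 0.05. Their median log2 fold change was -0.48. Whether the routes differed from each other was not tested. The remaining gene, H2-K2, is a class I pseudogene. By role, both classical heavy chains, all 6 peptide supply genes and 10 of 13 nonclassical or class I-like genes were lower. So were 4 of 7 genes of transport and loading, while 0 of 3 class II chains and 0 of 6 genes of class II loading passed the threshold.

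**Figure D1:**
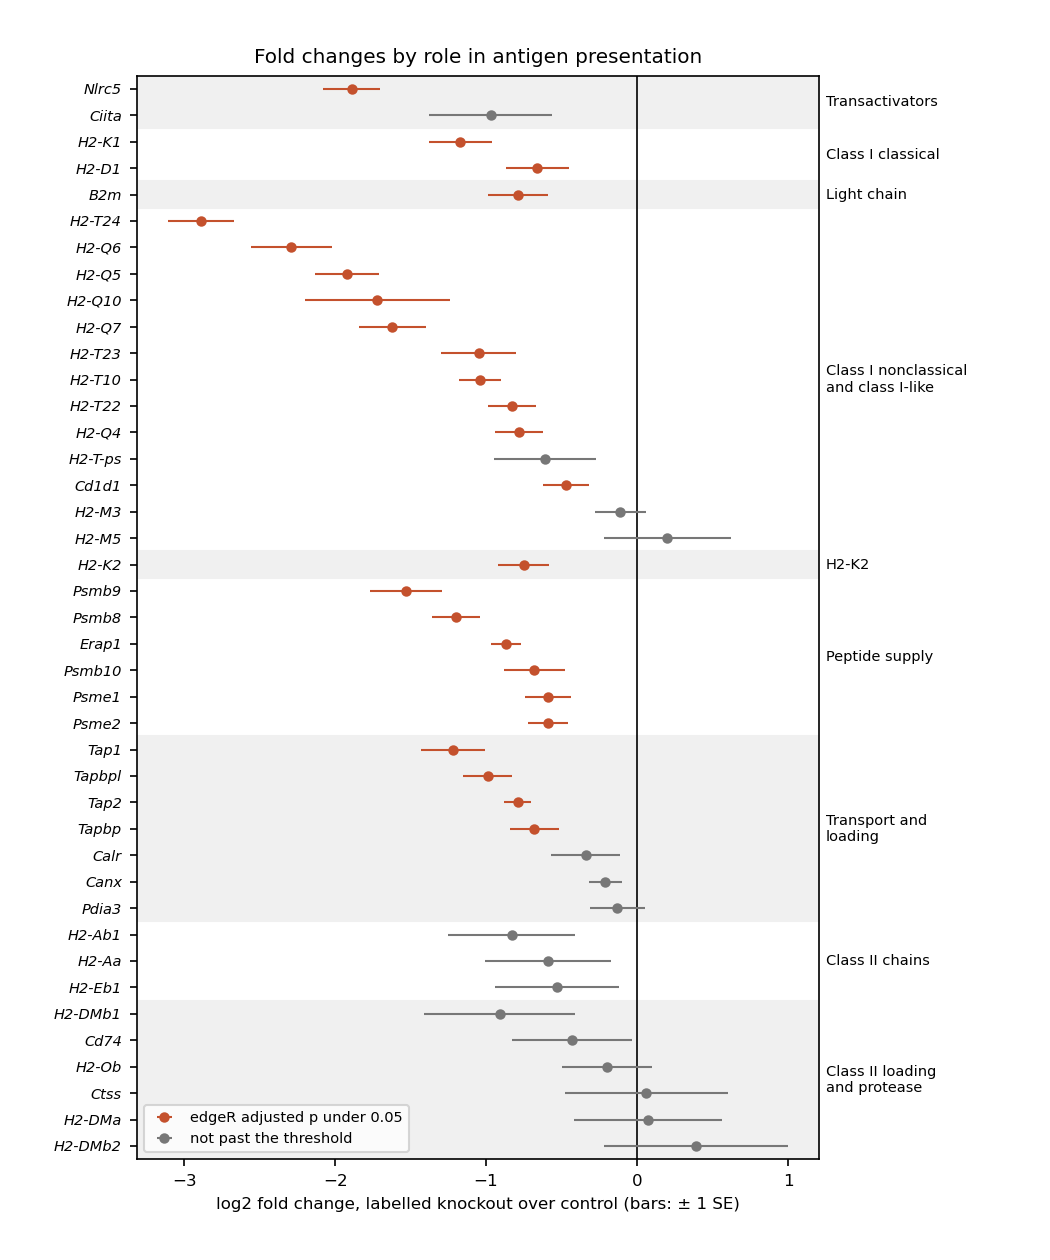
Log2 fold change (libraries labelled knockout over control) with its standard error for each of the 41 genes tested, grouped by role, with genes past the threshold marked. The 25 genes called lower lie between -2.89 and -0.47, and 0 genes were called higher.

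Nlrc5 (ENSMUSG00000074151, chr8:94434356-94527272, plus strand, GRCm38), which encodes the transactivator of class I genes, had 141, 163, 76.8 and 125 CPM in the controls and 40.3, 28.7, 35.5, 34.2 and 31.5 CPM in the libraries labelled knockout. Values here and below run from replicate 1 upward. The highest library labelled knockout was at 40.3 CPM and the lowest control at 76.8. The means were 126 ± 36.5 CPM in the controls (SD, n = 4) and 34 ± 4.37 (n = 5) (log2 fold change -1.89 ± 0.19, adjusted p = 0.000163), a 3.71-fold fall, and 0% of the gene's 50-base stretches occur in another gene. Ciita, the class II transactivator, was at a low level with 1.67, 2.03, 1.17 and 0.709 CPM in the controls and 1.09, 0.679, 0.883, 0.589 and 0.301 CPM in the libraries labelled knockout. These came from 177 counts in the controls together and 112 in the libraries labelled knockout. Its groups overlapped and it did not pass the threshold (log2 fold change -0.97 ± 0.41, adjusted p = 0.102). Its exons share 329 bases with Dexi on the opposite strand, and the sources used here do not state whether counting used strand.

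NLRC5 acts at class I promoters through a conserved block known as SXY, in which the X2 box is bound by CREB and ATF proteins and the Y box, CCAAT, by NF-Y. The promoter windows of 4 heavy chain or light chain genes are shown because they set genes that fell beside one that did not pass the threshold. They are the 250 bases before the RefSeq start in the sense direction of each gene (GRCm38.p6), and capitals mark the X2 core TGACG and the Y box CCAAT on either strand (CGTCA and ATTGG on the other).
H2-K1 (lower, chr17:34000334-34000583, minus strand): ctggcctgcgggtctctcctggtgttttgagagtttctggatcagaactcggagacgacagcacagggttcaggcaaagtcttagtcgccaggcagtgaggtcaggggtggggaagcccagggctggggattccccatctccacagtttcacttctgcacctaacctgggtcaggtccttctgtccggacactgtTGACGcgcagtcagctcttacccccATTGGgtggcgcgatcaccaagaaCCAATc
B2m (lower, chr2:122147437-122147686, plus strand): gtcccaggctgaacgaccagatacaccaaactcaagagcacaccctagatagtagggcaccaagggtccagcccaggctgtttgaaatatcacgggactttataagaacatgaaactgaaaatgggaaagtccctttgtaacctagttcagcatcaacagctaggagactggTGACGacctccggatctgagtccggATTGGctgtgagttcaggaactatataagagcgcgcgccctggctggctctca
H2-Q6 (lower, chr17:35424600-35424849, plus strand): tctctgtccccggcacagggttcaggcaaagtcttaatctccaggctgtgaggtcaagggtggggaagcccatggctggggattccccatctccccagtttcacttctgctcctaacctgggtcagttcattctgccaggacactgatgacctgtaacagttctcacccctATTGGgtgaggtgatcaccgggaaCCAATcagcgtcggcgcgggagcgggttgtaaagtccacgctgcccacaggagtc
H2-M3 (not past the threshold, chr17:37269984-37270233, plus strand): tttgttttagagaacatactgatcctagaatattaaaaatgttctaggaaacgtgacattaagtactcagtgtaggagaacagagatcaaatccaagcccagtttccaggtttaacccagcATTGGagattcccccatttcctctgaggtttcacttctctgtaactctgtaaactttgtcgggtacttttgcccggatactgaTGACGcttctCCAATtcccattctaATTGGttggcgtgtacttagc
H2-K1, B2m and H2-M3 each hold a TGACG whose start lies 25 bases before the start of an ATTGG, as does H2-D1. That arrangement was looked for after the windows had been seen, and it occurs in 15 of 27025 genes with a window (0.0555%). Since the spacing was taken from these windows, that share is no test. Within the set it lay in 3 of 17 genes that fell, 1 of 13 that did not pass and 0 of 15 not tested. H2-Q6 holds Y boxes and 0 copies of TGACG in these letters.

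RefSeq windows were matched for 45 of the 64 genes, 30 of them tested. TGACG lay in the window of 9 of 17 genes that fell (52.9%) and 4 of 13 that did not pass (30.8%), and in 19.8% of all 27025 genes. CCAAT lay in 11 of 17 (64.7%), in 11 of 13 (84.6%) and in 37.5% of all genes. Both occurred in 1 window for 8 of 17 (47.1%), 4 of 13 (30.8%) and 7.05%. The core of the interferon-stimulated response element, GAAA followed after any 2 bases by GAAA, lay in 3 of 17 (17.6%), 1 of 13 (7.69%) and 3.46%. An NF-kB-like site, GGG followed after any 2 bases by TTTCC, was found in 2 of 17 (11.8%), 0 of 13 and 1.65%. ETS factors such as Erg and Fli1 bind around a GGAA core, and the ETS letters CCGGAA lay in 1 of 17 (5.88%), 2 of 13 (15.4%) and 13.6% of all genes. Each search covered both strands, and matches of the interferon, NF-kB-like and ETS letters may overlap one another. Only these exact letters were counted. Sites of the same factors with other letters were not looked for, so a window without a match may still hold one. Class I genes are copies of one another, so their windows are not independent, and a match is a description of letters.

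The classical heavy chains H2-K1 and H2-D1 present peptides to CD8 T cells on most cells. H2-K1 (chr17:33996017-34000347, minus strand) had 2091, 2684, 2143 and 1896 CPM in the controls and 1071, 751, 655, 1346 and 1078 CPM in the libraries labelled knockout. No library labelled knockout reached the lowest control, and the means were 2203 ± 338 CPM in the controls (SD, n = 4) and 980 ± 278 (n = 5) (log2 fold change -1.17 ± 0.21, adjusted p = 0.00314), a fall of 2.25-fold. H2-D1 (chr17:35262730-35267499, plus strand) had 2461, 2926, 2644 and 2188 CPM in the controls and 1749, 1394, 1017, 2172 and 1749 CPM in the libraries labelled knockout. The highest library labelled knockout, replicate 4, lay just under the lowest control, also replicate 4, and the fall was 1.58-fold (log2 fold change -0.66 ± 0.21, adjusted p = 0.0368). The H2-D1 call ended when control replicate 1, 2 or 3 or knockout replicate 1, 2 or 5 was left out (adjusted p 0.0549 to 0.105), and with a term for sex (0.0594). Of the 50-base stretches of H2-K1, 9.6% occur in another gene, and of H2-D1, 12.8%, so reads of these rows may have been shared with related genes.

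B2m (chr2:122147686-122153083, plus strand) encodes β2-microglobulin, the light chain that pairs with class I heavy chains, and 0% of its 50-base stretches occur elsewhere. Its libraries stood at 2778, 3144, 2771 and 2353 CPM in the controls and 1904, 1217, 1150, 2096 and 1626 CPM in the libraries labelled knockout. Again the groups did not overlap, with knockout replicate 4 the nearest to the controls and replicates 2 and 3 the lowest. The means were 2762 ± 323 CPM in the controls (SD, n = 4) and 1598 ± 415 (n = 5) (log2 fold change -0.79 ± 0.20, adjusted p = 0.0145), a 1.73-fold fall. Per kilobase of exon, B2m was the most abundant of the 64 genes in both groups, with 3211 ± 376 CPM per kb (mean ± SD, n = 4) in the controls and 1859 ± 482 (n = 5) in the libraries labelled knockout. H2-D1 followed with 991 ± 120 and 627 ± 168, then H2-K1 with 750 ± 115 and 334 ± 94.7. The spreads of H2-D1 and H2-K1 did not overlap as mean ± SD in either group, and the order of the genes was the same in both groups.

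The 32 class I heavy chain rows together held 6784, 8565, 7015 and 6156 CPM in the controls and 3956, 3027, 2403, 4814 and 3983 CPM in the libraries labelled knockout. Reads counted in the wrong row among these 32 stay inside the sum. Shared reads that the unnamed counting program left out, or placed in other rows, would not. The groups did not overlap. The mean sum was 7130 ± 1023 CPM (SD, n = 4) against 3637 ± 936 (n = 5). The 5 class II chain rows held 68.2, 42.2, 22.7 and 20.2 CPM in the controls and 39.6, 30, 15.7, 20.5 and 15.6 CPM in the libraries labelled knockout, with a mean of 38.3 ± 22.2 against 24.3 ± 10.4. Those sums overlapped between the groups.

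**Figure D2:**
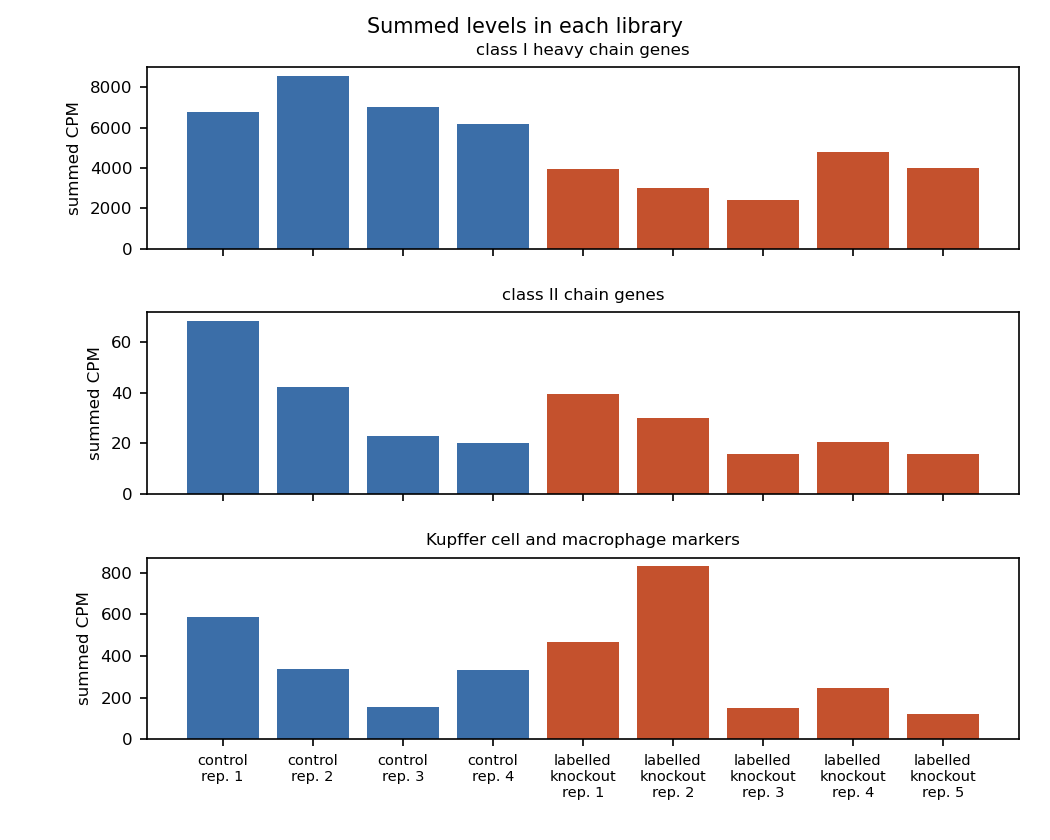
Summed CPM per library of the 32 class I heavy chain rows and of the 5 class II chain rows, for 4 control libraries and 5 libraries labelled knockout. Class I sums lie at 6156 or more in the controls and at 4814 or less in the libraries labelled knockout, while class II sums overlap.

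Among nonclassical heavy chains, H2-T24 (chr17:36005695-36020560, minus strand) fell most, with 105, 113, 75 and 89.2 CPM in the controls and 16.9, 9.29, 8.83, 14.6 and 14.8 CPM in the libraries labelled knockout. The highest library labelled knockout was at 16.9 CPM and the lowest control at 75.0. The means were 95.5 ± 16.8 CPM in the controls (SD, n = 4) and 12.9 ± 3.6 (n = 5) (log2 fold change -2.89 ± 0.22, adjusted p = 3.57e-05), the 7.43-fold fall at the top of the range, and 3.2% of its 50-base stretches occur in another gene. H2-Q6 (chr17:35424850-35430055, plus strand) had 371, 579, 396 and 379 CPM in the controls and 92.6, 58.2, 55.5, 133 and 100 CPM in the libraries labelled knockout. Its means were 431 ± 99.1 CPM in the controls (SD, n = 4) and 87.9 ± 32.1 (n = 5) (log2 fold change -2.29 ± 0.27, adjusted p = 0.000343), a 4.91-fold fall between groups that did not overlap. H2-Q5 stood at 63, 97.2, 66.7 and 73.3 CPM in the controls and 20.1, 13.5, 15.7, 26.3 and 23.8 CPM in the libraries labelled knockout, a 3.78-fold fall (log2 fold change -1.92 ± 0.21, adjusted p = 0.000224). H2-Q7, one of the Qa-2 heavy chains with a lipid anchor, stood at 208, 345, 235 and 244 CPM in the controls and 90.7, 55.3, 67.5, 109 and 99.2 CPM in the libraries labelled knockout, a 3.06-fold fall (log2 fold change -1.62 ± 0.22, adjusted p = 0.000666). In both genes every library labelled knockout was below every control.

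H2-Q4 was the most abundant nonclassical row per kilobase, with 287 ± 44.4 CPM per kb in the controls (SD, n = 4) and 167 ± 29.8 in the libraries labelled knockout (n = 5). Its libraries stood at 726, 912, 662 and 676 CPM in the controls and 502, 366, 336, 489 and 479 CPM in the libraries labelled knockout, a 1.71-fold fall (log2 fold change -0.78 ± 0.16, adjusted p = 0.00503). H2-T23 encodes Qa-1, which shows leader peptides of other class I chains to inhibitory receptors of NK cells. It stood at 529, 609, 580 and 409 CPM in the controls and 258, 257, 130, 356 and 282 CPM in the libraries labelled knockout, a 2.07-fold fall (log2 fold change -1.05 ± 0.25, adjusted p = 0.0107). Knockout replicate 3 was the lowest library for H2-T23 and knockout replicate 4 the highest of its group, with no overlap with the controls. H2-T22 and H2-T10 are closely related genes known for ligands of some γδ T cell receptors, and the annotation gives H2-T10, like H2-Q5, as a polymorphic pseudogene. H2-T22 stood at 152, 212, 141 and 134 CPM in the controls and 96.9, 75.1, 76, 104 and 98.5 CPM in the libraries labelled knockout (log2 fold change -0.83 ± 0.16, adjusted p = 0.00354), and H2-T10 at 26.7, 36, 27.3 and 25.2 CPM in the controls and 13.9, 11.8, 11.8, 15.6 and 16.9 CPM in the libraries labelled knockout (log2 fold change -1.04 ± 0.14, adjusted p = 0.000745). Of the 50-base stretches of H2-T10, 31.7% occur in H2-T22, so the split of reads between these rows is uncertain.

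Sharing of sequence was wide in this family: 32.0% of the 50-base stretches of H2-Q6 occur in another gene, 36.4% of H2-Q5, 26.4% of H2-Q7, 21.8% of H2-Q4, 34.5% of H2-T22 and 13.6% of H2-T23. Antisense genes also cover 29.38% of the exon bases of H2-T22 (A930015D03Rik) and 19.11% of H2-Q4 (Gm11131). The values of single H2-Q and H2-T rows are therefore uncertain. Of the 21 tested genes with under 1% of such stretches in another gene, 8 were lower.

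H2-Q10 is a class I chain that hepatocytes secrete, and it stood at 5.82, 4.09, 2.43 and 2.25 CPM in the controls and 1.59, 0.71, 0.806, 2.06 and 0.401 CPM in the libraries labelled knockout (log2 fold change -1.72 ± 0.48, adjusted p = 0.0231). Its call ended without control replicate 1 (adjusted p 0.077), without control replicate 2 (0.0598), with a term for sex (0.0617) and without knockout replicates 2 and 3 (0.0836). Beside it, the summed CPM of 5 hepatocyte markers, with 0 of the 5 called, ran from 146 to 335 in the controls and from 16.2 to 190 in the libraries labelled knockout. No hepatocyte marker was at 0 in all libraries, and the part of hepatocyte RNA in the H2-Q10 result was not tested. Cd1d1, which presents lipids to NKT cells, stood at 6.48, 7.43, 7.28 and 6.14 CPM in the controls and 4.48, 6.02, 4.08, 4.86 and 5.21 CPM in the libraries labelled knockout and fell by the smallest step among the genes called, 1.39-fold (log2 fold change -0.47 ± 0.15, adjusted p = 0.0371). That call ended without control replicate 1, 2 or 3 or knockout replicate 1, 3, 4 or 5 (adjusted p 0.054 to 0.106), with a term for sex (0.067) and without a count filter (0.0847).

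The other 3 nonclassical rows tested did not pass the threshold. H2-M3, which presents formylated peptides, stood at 36.7, 38, 31.4 and 29 CPM in the controls and 35.9, 26.4, 21.5, 39 and 34.3 CPM in the libraries labelled knockout (log2 fold change -0.11 ± 0.17, adjusted p = 0.678). Its groups overlapped across most of their range. H2-M5 had a log2 fold change of 0.20 ± 0.42 (adjusted p = 0.759) and H2-T-ps one of -0.61 ± 0.34 (adjusted p = 0.209). The pseudogene H2-K2 stood at 33.8, 42.2, 51.7 and 38.3 CPM in the controls and 18.8, 23.1, 21.8, 29.5 and 30.7 CPM in the libraries labelled knockout, a 1.68-fold fall (log2 fold change -0.75 ± 0.17, adjusted p = 0.00881).

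**Figure D3:**
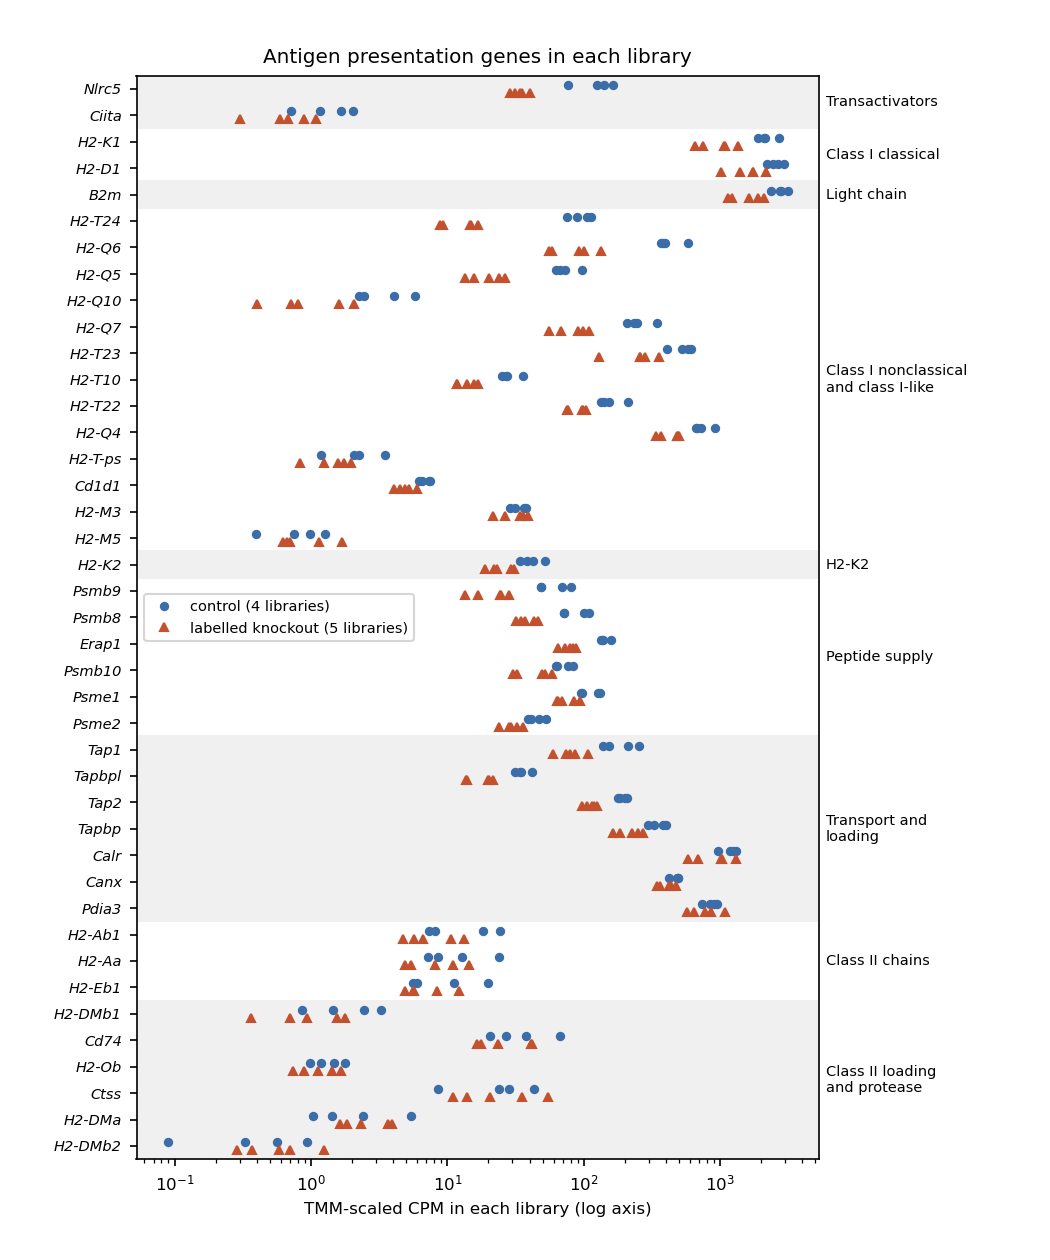
Level of each tested gene in every library, in CPM on a log scale, for 4 control libraries and 5 libraries labelled knockout. For the 25 genes called lower, from Cd1d1 to H2-T24, the points of the groups do not overlap.

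Under interferon, cells replace the catalytic subunits of the constitutive proteasome with the immunoproteasome subunits PSMB8, PSMB9 and PSMB10, which favour peptides that fit class I grooves. All 6 genes of peptide supply fell. Psmb9 (chr17:34181987-34187764, minus strand) stood at 69.7, 80.7, 48.7 and 48.9 CPM in the controls and 28.4, 13.5, 16.7, 24.5 and 24.6 CPM in the libraries labelled knockout, a 2.88-fold fall (log2 fold change -1.53 ± 0.24, adjusted p = 0.00154). Psmb8 (chr17:34197721-34201454, plus strand) stood at 101, 110, 71.8 and 72 CPM in the controls and 46, 31.8, 34.5, 43.5 and 37.3 CPM in the libraries labelled knockout, a 2.30-fold fall (log2 fold change -1.20 ± 0.16, adjusted p = 0.000632). For both, control replicates 1 and 2 were higher than control replicates 3 and 4, and all controls were above the other group. Psmb10 stood at 83.1, 76, 64 and 62.9 CPM in the controls and 58.2, 30.5, 32.6, 49.7 and 51.7 CPM in the libraries labelled knockout, a 1.61-fold fall (log2 fold change -0.68 ± 0.20, adjusted p = 0.0277). The Psmb10 call ended without control replicate 1 (adjusted p 0.0815), control replicate 2 (0.0722) or knockout replicate 3 (0.0511), without a count filter (0.0551) and with a term for sex (0.061).

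Psme1 and Psme2 encode the PA28 activator that opens the proteasome core. Psme1 stood at 131, 127, 95.5 and 97 CPM in the controls and 93.7, 63.7, 64.5, 84.6 and 68.8 CPM in the libraries labelled knockout (log2 fold change -0.59 ± 0.15, adjusted p = 0.0152) and Psme2 at 47.3, 52.6, 38.8 and 41.1 CPM in the controls and 35.9, 23.7, 29.3, 32.2 and 28.4 CPM in the libraries labelled knockout (log2 fold change -0.59 ± 0.13, adjusted p = 0.00803), a 1.5-fold fall in each. The lowest control and the highest library labelled knockout were close in both genes. The Psme1 call ended without control replicate 1 (adjusted p 0.0501), control replicate 2 (0.0509) or knockout replicates 2 and 3 together (0.0558), and 28.3% of the 50-base stretches of Psme2 occur in another gene, chiefly Psme2b. Erap1, the trimming aminopeptidase, stood at 158, 136, 134 and 138 CPM in the controls and 82.8, 72.6, 64.3, 87.9 and 79 CPM in the libraries labelled knockout, a 1.83-fold fall (log2 fold change -0.87 ± 0.10, adjusted p = 0.000243). Its exons share 834 bases, 11.46% of their length, with Cast on the opposite strand.

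The constitutive proteasome carries out the same cutting in cells without interferon. Of 16 constitutive subunits and activators tested, 1 was lower (Psma7, 58.6 ± 3.05 against 51.6 ± 1.96 CPM, log2 fold change -0.18 ± 0.06, adjusted p = 0.0493) and 1 higher (Psme4, the PA200 activator, log2 fold change 0.33 ± 0.08, adjusted p = 0.00985). The shares of all genes tested were 14.8% lower and 14.5% higher. The median log2 fold change of the 16 was 0.03, with a range of -0.18 to 0.33. The Psma7 call ended on leaving out any library but control replicate 4 (adjusted p 0.0589 to 0.124). Log2 fold changes of the subunits that the immunoproteasome replaces were 0.01 ± 0.13 for Psmb5, 0.08 ± 0.08 for Psmb6 and 0.11 ± 0.10 for Psmb7, and none of these 3 passed the threshold.

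The ratio of each immunoproteasome subunit to the subunit it replaces, both per kilobase, was taken within each library. For Psmb8 to Psmb5 it was 3.03, 3.1, 1.89 and 2.03 in the controls and 1.14, 0.954, 0.936, 1.06 and 1.31 in the libraries labelled knockout. For Psmb9 to Psmb6 it was 0.687, 0.787, 0.491 and 0.516 against 0.247, 0.14, 0.15, 0.226 and 0.266. For Psmb10 to Psmb7 it was 3.38, 3.35, 2.88 and 3.12 against 2.05, 1.27, 1.39, 1.98 and 2.51. No ratio overlapped between the groups. Mean ratios fell from 2.51 ± 0.642 to 1.08 ± 0.154 for Psmb8 (SD, n = 4 and 5), and from 0.62 ± 0.141 to 0.206 ± 0.0572 for Psmb9. That of Psmb10 went from 3.18 ± 0.235 to 1.84 ± 0.511. On the scale of the test, the mean of log2 ratios, the differences were -1.19, -1.61 and -0.83, which are falls of 2.28-fold, 3.06-fold and 1.78-fold. An exact two-sided permutation test gave p = 0.0159 for each, the smallest value that 4 against 5 libraries can give, and 0.0159 after adjustment over the 3 ratios. These 3 tests share the values that the fits above used and are not independent of them.

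**Figure D4:**
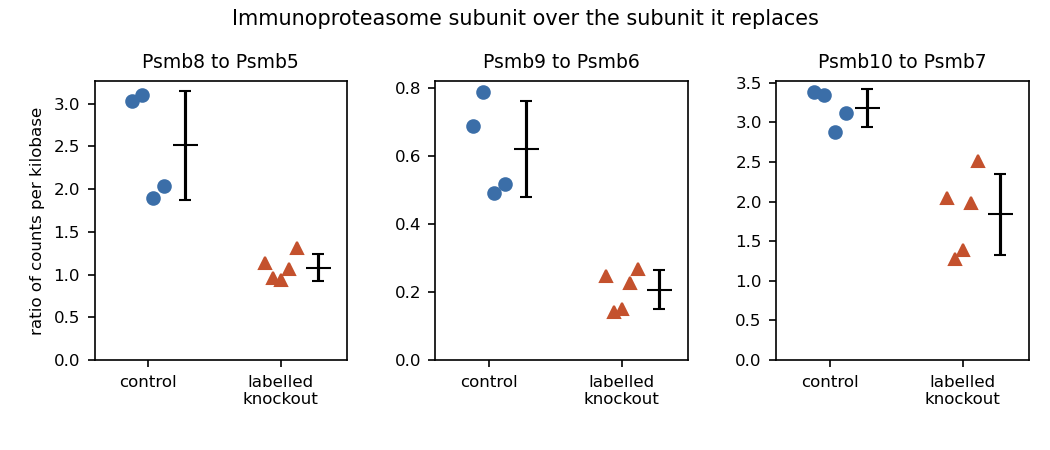
Ratio of each immunoproteasome subunit to the constitutive subunit it replaces, both in CPM per kilobase, for each library of the 2 groups. In all 3 panels the 5 libraries labelled knockout lie below the 4 controls, with mean ratios of 1.08 against 2.51 for Psmb8, 0.206 against 0.62 for Psmb9 and 1.84 against 3.18 for Psmb10.

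Tap1 and Tap2 encode the subunits of the peptide transporter. Tap1 (chr17:34187553-34197225, plus strand) stood at 212, 255, 138 and 152 CPM in the controls and 107, 59.2, 74.5, 85.5 and 79 CPM in the libraries labelled knockout, a 2.33-fold fall (log2 fold change -1.22 ± 0.21, adjusted p = 0.00239). Tap2 (chr17:34203527-34216321, plus strand) stood at 202, 209, 178 and 185 CPM in the controls and 114, 106, 96.3, 126 and 119 CPM in the libraries labelled knockout, a 1.72-fold fall (log2 fold change -0.79 ± 0.09, adjusted p = 0.000278). The Tap2 values were close together within each group, whereas the Tap1 controls split into replicates 1 and 2 above 3 and 4. Tap1 and Psmb9 are neighbours on opposite strands whose exons share 212 bases, 3.87% of those of Tap1 and 5.79% of those of Psmb9. Tapbp encodes tapasin, which bridges TAP and the heavy chain, and stood at 401, 380, 329 and 298 CPM in the controls and 250, 185, 164, 273 and 225 CPM in the libraries labelled knockout, a 1.60-fold fall (log2 fold change -0.68 ± 0.16, adjusted p = 0.0102). Tapbpl encodes TAPBPR, a tapasin-like peptide editor, and stood at 42, 34.8, 34.3 and 31.2 CPM in the controls and 19.8, 14, 13.8, 20.3 and 21.7 CPM in the libraries labelled knockout, a 1.99-fold fall (log2 fold change -0.99 ± 0.16, adjusted p = 0.00152). In both, every library labelled knockout was below every control. The antisense gene Gm19412 covers 24.92% of the exon bases of Tapbp.

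General chaperones of the endoplasmic reticulum, which fold many proteins besides class I, did not pass the threshold. Calr, calreticulin, stood at 1238, 970, 1172 and 1306 CPM in the controls and 1018, 578, 689, 1308 and 1039 CPM in the libraries labelled knockout (log2 fold change -0.34 ± 0.23, adjusted p = 0.291). Pdia3, the disulfide isomerase ERp57, stood at 949, 731, 898 and 843 CPM in the controls and 857, 567, 644, 1078 and 774 CPM in the libraries labelled knockout (log2 fold change -0.13 ± 0.18, adjusted p = 0.645). Both sets of values overlapped, with knockout replicates 2 and 3 the lowest of all libraries. Canx, calnexin, had a log2 fold change of -0.21 ± 0.11 (adjusted p = 0.197).

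Class II transcripts were present at low levels and varied widely within each group. H2-Ab1 stood at 24.5, 18.2, 8.13 and 7.36 CPM in the controls and 13.2, 10.6, 4.7, 6.67 and 5.71 CPM in the libraries labelled knockout (log2 fold change -0.83 ± 0.42, adjusted p = 0.169). H2-Eb1 stood at 19.8, 11.1, 6.02 and 5.61 CPM in the controls and 12.1, 8.36, 5.61, 5.67 and 4.91 CPM in the libraries labelled knockout (log2 fold change -0.53 ± 0.41, adjusted p = 0.36). Control replicate 1 was the highest library for both chains, control replicates 3 and 4 lay inside the range of the libraries labelled knockout, and the groups overlapped. H2-Aa, the partner of H2-Ab1, stood at 23.9, 12.9, 8.51 and 7.21 CPM in the controls and 14.3, 11, 5.43, 8.14 and 4.88 CPM in the libraries labelled knockout (log2 fold change -0.59 ± 0.42, adjusted p = 0.318). Per kilobase, H2-Ab1 had 5.67 ± 3.22 CPM per kb in the controls, where B2m had 3211 ± 376.

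Cd74, the invariant chain that guards the class II groove, stood at 67, 37.5, 26.7 and 20.4 CPM in the controls and 41, 41.5, 17.6, 23.6 and 16.6 CPM in the libraries labelled knockout (log2 fold change -0.43 ± 0.40, adjusted p = 0.448). Ctss, cathepsin S, which cuts the invariant chain, stood at 43.3, 28.2, 8.57 and 23.7 CPM in the controls and 35, 55.1, 10.9, 20.4 and 14 CPM in the libraries labelled knockout (log2 fold change 0.06 ± 0.54, adjusted p = 0.943). Control replicate 1 was the highest library for Cd74 and knockout replicate 2 the highest for Ctss. The chains of the peptide editors H2-DM and H2-DO had log2 fold changes of -0.91 ± 0.50 (H2-DMb1, adjusted p = 0.2), 0.07 ± 0.49 (H2-DMa, 0.933), 0.39 ± 0.61 (H2-DMb2, 0.669) and -0.20 ± 0.30 (H2-Ob, 0.648). Without control replicate 1 that of H2-DMa was 0.72 (adjusted p = 0.238). None of these 6 genes passed the threshold. Exons of H2-DMa share 360 bases, 10.44% of their length, with Brd2 on the opposite strand. Of the 50-base stretches of H2-DMb1, 22.7% occur in H2-DMb2, and 21.2% of those of H2-DMb2 occur in H2-DMb1. Values of these 3 rows may therefore include reads of other genes. Standard errors of the 10 class II genes ran from 0.30 to 0.61 on the log2 scale, against 0.09 to 0.24 for the 10 called genes of peptide supply, transport and loading.

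Markers of cells that carry class II also varied between libraries. Summed CPM of 12 Kupffer cell and macrophage markers, with 0 of 12 called, was 589, 337, 153 and 333 in the controls and 465, 831, 149, 247 and 119 in the libraries labelled knockout. The library with the highest sum, knockout replicate 2, was also the highest for Ctss, and control replicate 1, next in this sum, was the highest for the class II chains and Cd74. In summed class II chains, however, knockout replicate 2 stood at 30 CPM. That was below control replicates 1 and 2 (68.2 and 42.2) and knockout replicate 1 (39.6). Summed CPM of 7 B cell markers (0 of 7 called) ran from 3.49 to 20.5 in the controls and from 14.1 to 41.6 in the libraries labelled knockout. Of 8 dendritic cell markers, summing to 346 to 519 and 246 to 391 CPM, Zbtb46 (302 to 439 CPM in the controls, 139 to 220 in the libraries labelled knockout, called lower) and Clec9a (44 to 84.8 and 97.6 to 179, called higher) held nearly the whole sum. The other 6, Xcr1, Flt3, Itgax, Siglech, Ccr9 and Cd209a, reached at most 1.14 CPM in any library. Ptprc, which encodes CD45, ran from 4.82 to 6.34 CPM and from 4.07 to 12.2. No marker of these lists was at 0 in all libraries, and the part of such cells in the class II values was not tested.

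Of the 23 genes that failed the count filter, 13 had 0 counts in all 9 libraries: H2-Pb, H2-Ea-ps, H2-Q3, H2-M1, H2-M9, H2-M11, H2-M10.1, H2-M10.2, H2-M10.3, H2-M10.4, H2-M10.5, H2-M10.5-ps1 and H2-M10.6. The other 10, H2-Ke6, H2-Pa, H2-Oa, H2-Eb2, H2-Q1, H2-Q2, H2-Bl, H2-T3, H2-M6-ps and H2-M2, reached at most 0.5 CPM in any library. Of the 23, 7 carry a pseudogene biotype in the annotation. No statement on their change is made, since a count of 0 allows up to 3 counts in a library.

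Regulators of MHC genes, 20 genes reported here, were called in both directions, 4 lower and 5 higher, with a median log2 fold change of -0.06. The shares of all genes tested were 14.8% lower and 14.5% higher, and whether this list differs from them was not tested. Irf1, an interferon-induced activator of class I and Nlrc5, went from 383 ± 110 CPM in the controls (SD, n = 4) to 188 ± 57.4 (n = 5) (log2 fold change -1.03 ± 0.26, adjusted p = 0.0145). Rfx5 and Rfxank encode subunits of the RFX complex, which binds the X box, and moved in opposite directions: Rfx5 went from 46.5 ± 1.77 CPM in the controls (SD, n = 4) to 28.9 ± 7.03 (n = 5) (log2 fold change -0.69 ± 0.16, adjusted p = 0.0118), and Rfxank from 25.1 ± 1.61 CPM in the controls (SD, n = 4) to 37.9 ± 2.59 (n = 5) (log2 fold change 0.59 ± 0.08, adjusted p = 0.000541). The chains of the type I interferon receptor both rose, Ifnar1 (log2 fold change 0.66 ± 0.12, adjusted p = 0.00357) and Ifnar2 (log2 fold change 0.51 ± 0.07, adjusted p = 0.000725). Those of the interferon γ receptor did not pass the threshold, at log2 fold changes of 0.15 ± 0.10 for Ifngr1 and -0.04 ± 0.13 for Ifngr2. Nfkb1 fell (log2 fold change -0.39 ± 0.09, adjusted p = 0.00985), as did Socs1, an inhibitor that interferons induce (log2 fold change -1.17 ± 0.35, adjusted p = 0.0345). Irf8 (log2 fold change 0.48 ± 0.13, adjusted p = 0.0196) and Jak1 (log2 fold change 0.39 ± 0.12, adjusted p = 0.0361) rose.

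Of these, 3 calls ended on leaving out any 1 of several libraries. The Socs1 call ended without control replicate 1, 2 or 4 or knockout replicate 1 or 5 (0.0687 to 0.0943). The Irf8 call ended without control replicate 2 or 3 (0.0548 to 0.0616), and the Jak1 call without any library but knockout replicates 3 and 4 (0.0502 to 0.113).

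Of 9 genes of class II processing and turnover, 2 were lower and 3 higher, beside 14.8% and 14.5% of all genes tested. Cathepsin D, Ctsd, went from 422 ± 34.2 CPM in the controls (SD, n = 4) to 196 ± 41.6 (n = 5) (log2 fold change -1.11 ± 0.16, adjusted p = 0.000918), and Ctsl also fell (log2 fold change -0.71 ± 0.19, adjusted p = 0.0198). Ctsb (log2 fold change 0.55 ± 0.14, adjusted p = 0.015), Lgmn, the legumain endopeptidase (log2 fold change 0.68 ± 0.19, adjusted p = 0.0263), and Cst3, the inhibitor cystatin C (log2 fold change 0.56 ± 0.17, adjusted p = 0.0337), rose. The Ctsl call ended without control replicate 1 or 3 (adjusted p 0.0547 to 0.0553) and that of Ctsb without control replicate 2 (0.0507). Those of Lgmn (0.0516 to 0.0732) and Cst3 (0.0559 to 0.088) each ended without any of 6 libraries, which were control replicates 2, 3 and 4 and knockout replicates 1 and 4 for both, with knockout replicate 5 for Lgmn and control replicate 1 for Cst3.

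Among costimulation and checkpoint ligands, 8 of 11 were tested, 2 were lower and 1 higher. For this list and the class I-like list below, the shares of all genes tested were 14.8% lower and 14.5% higher. Icam1, an adhesion ligand of T cells, went from 248 ± 65.7 CPM in the controls (SD, n = 4) to 119 ± 15.2 (n = 5) (log2 fold change -1.06 ± 0.16, adjusted p = 0.00136). Cd274, which encodes PD-L1, went from 86.5 ± 19.4 CPM in the controls (SD, n = 4) to 45 ± 9.49 (n = 5) (log2 fold change -0.94 ± 0.18, adjusted p = 0.004). Cd40 rose (log2 fold change 0.80 ± 0.24, adjusted p = 0.031), a call that ended without control replicate 1, 3 or 4 or knockout replicate 1, 4 or 5 (adjusted p 0.0521 to 0.0757). Class I-like genes outside the H2- symbols, 6 of 9 tested, had 2 lower, Fcgrt, the neonatal Fc receptor chain (log2 fold change -0.71 ± 0.22, adjusted p = 0.0381), and Hfe, the class I-like regulator of iron (log2 fold change -0.77 ± 0.25, adjusted p = 0.0424), and 1 higher, Procr, the endothelial protein C receptor (log2 fold change 2.35 ± 0.78, adjusted p = 0.0464). All 3 calls ended on leaving out single libraries: Fcgrt without control replicate 1, 2 or 3 or knockout replicate 2 (0.0685 to 0.102), Hfe without any control or knockout replicate 1 or 2 (0.0509 to 0.11), and Procr without any control or knockout replicate 2 or 3 (0.0909 to 0.115). Procr stood at 4.84, 6.68, 7.15 and 6.79 CPM in the controls and 5.89, 65.8, 70.8, 10.5 and 9.58 CPM in the libraries labelled knockout, so that knockout replicates 2 and 3 were far above the others. Without those 2 libraries its log2 fold change was 0.45 (adjusted p = 0.167).

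Most of the set lies in the MHC on chromosome 17, which also holds genes with no role in presentation. Between the first and the last H2- symbol of chromosome 17 (chr17:33974659-37483552, GRCm38) 97 genes outside the set were tested, of which 10 were lower (10.3%) and 9 higher (9.28%), with a median log2 fold change of 0.02. Within the set, 17 of 27 tested genes on chromosome 17 were lower, and 8 of 14 on other chromosomes, where B2m, Nlrc5, Erap1, Psmb10, Psme1, Psme2, Tapbpl and Cd1d1 lie.

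**Figure D5:**
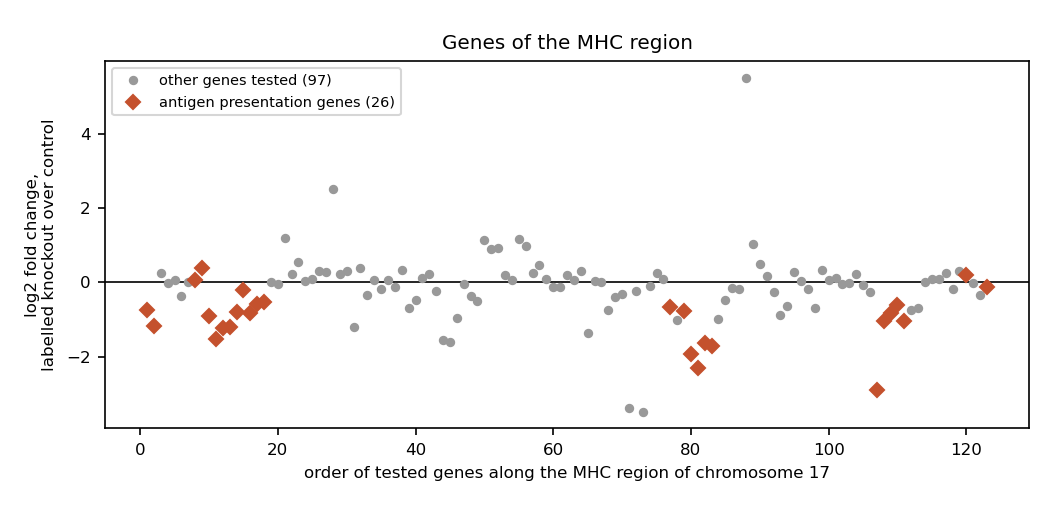
Log2 fold change of tested genes along the MHC on chromosome 17, by their order and not by distance, for genes of the set and for the 97 others. The others centre on a median of 0.02, with 10 called lower and 9 higher.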

How the data were processed

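RNA was measured in 9 libraries of sorted mouse liver endothelial cells, 4 of the control group and 5 of the group labelled double knockout, as their titles give it. The deposited values are raw counts of each Ensembl gene, in 1 table of the authors with 0 columns unused here. FastQC 0.11.5, STAR 2.7.6a and GRCm38 are named per the submitters' processing notes. Per the labels' protocols, poly(A) libraries came from 1 of 2 TruSeq kits, of which 1 keeps strand. Which kit, which counting program and whether it used strand: not given in the sources used here. Reads of overlapping opposite genes may therefore be merged.

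Symbols came from the GENCODE annotation of GRCm38 (52403 identifiers matched, 233 did not). After filterByExpr (minimum count 10, minimum total 15) 14583 genes remained. The main test was the quasi-likelihood test of edgeR 4.0.16 (R 4.3.3) on TMM-scaled counts, robust and without covariates, with Benjamini-Hochberg adjustment over all genes and a threshold of 0.05. Alternatives used DESeq2 1.42.0, limma 3.58.1 (voom), other scalings and filters, a sex term, a replicate block and fewer libraries. Shared sequence was counted as the percentage of a gene's 50-base stretches found in transcripts of another gene. Replicates within a group differed by 20.3 to 182 in chi-square per degree of freedom, so each was counted once. The depth, given in the report, covers counting error only.

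The genes and the pathway and marker lists were chosen with earlier results of these data known. Any tested gene of the set could be named. Values in every library were given for those past the threshold and for the 2 most abundant per kilobase of each role, and genes of the pathway lists were named where past the threshold, apart from 1 that is not reported here.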

Additional observations from a re-analysis of the deposited data

Results flagged for a closer look

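In 82 sets of values (41 genes in 2 groups) the highest and lowest library were compared with the others of their group by Dixon's ratio, and 3 libraries stood apart, where chance alone gives about 1 in 20 sets. Control replicate 2 held 419 CPM of Canx, below the other controls at 480 to 491. Control replicate 1 held 158 CPM of Erap1, above the other controls at 134 to 138. Control replicate 2 held 579 CPM of H2-Q6, above the other controls at 371 to 396. Erap1 and H2-Q6 kept their calls without those libraries, and Canx did not pass the threshold with or without it.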

How the results depend on the processing

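The count of 25 genes lower and 0 higher was recomputed under 18 alternatives, and 0 genes were higher in each. The count lower was 25 with DESeq2, limma-voom and both other scalings, 23 of 51 without a filter, 24 of 33 with a filter of 5 CPM in 4 samples, 21 with a sex term, 23 without knockout replicates 2 and 3, and 20 to 25 when each library was left out in turn. Leaving out, by name, the H2-Q and H2-T rows, H2-K1, H2-D1, pseudogenes and symbols of no chain gave 13 of 28. That choice used names and not shared sequence. Psme2 and Cd1d1, with 28.3% and 19.1% of their 50-base stretches in another gene, stayed in it and were among the 13. Of the 25 genes, 17 kept direction and call in all 18 alternatives. Over the genes of the set that each alternative tested, 695 results stayed on the same side of the threshold, 34 lost their call, 1 gained one and 0 reversed. The log2 differences of the ratios ran from -1.32 to -1.08 (Psmb8), -1.72 to -1.49 (Psmb9) and -0.95 to -0.71 (Psmb10) with each library left out, and were -1.15, -1.50 and -0.68 against the mean of Psma1 to Psma7. Without knockout replicates 2 and 3 they were -1.07, -1.31 and -0.55, and 4 against 3 libraries were not tested. With the replicate number as a block, over the 8 libraries whose numbers both groups share, 20 genes were lower. Calls ended for B2m (edgeR adjusted p = 0.0756), H2-D1 (0.11), H2-T23 (0.0564), Psme2 (0.059), H2-Q10 (0.0627) and Cd1d1 (0.0993), and H2-Ab1 gained one (-0.65, 0.0467). The numbers do not pair the libraries: correlations of same-numbered deviations were 0.291, -0.031, -0.018 and -0.333, and only replicate 1 correlated best with its own number. Depth limits the 23 untested genes, which reached at most 0.5 CPM.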
